A study of Mus musculus with 2 samples.

Results

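Mature inflammatory neutrophils of the mouse thymus were described in Mgl2DTR_eGFP mice (Mgl2DTR) and in wild-type mice (WT). They were chosen by their transcripts among cells that carried a single genotype hashtag. A member gave at least 3% of its UMIs (unique molecular identifiers, 1 per captured transcript) to the calprotectin genes S100a8 and S100a9 and held at least 3 UMIs of Cxcr2, G0s2 and Hdc together. It held at most 4 UMIs of the granule genes Camp, Ngp, Ltf and Chil3, and at most 1 UMI each of Xcr1 with Clec9a, of Ccr7 with Fscn1 and of the 3 Cd3 genes. The rule found 618 of 19019 single-hashtag cells, 509 in Mgl2DTR and 109 in WT, out of 28926 cells in all.

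All mice were 7 weeks old. Mgl2DTR mice carry a diphtheria toxin receptor with eGFP under the name of Mgl2, a lectin gene of type 2 dendritic cells and some macrophages, and received 500 ng of diphtheria toxin, with 48 h of exposure. Wild-type mice are named in the labels as B6WT, and the labels do not say whether they received toxin. Thymus was digested with collagenase D at 1 mg/ml, magnetic depletion removed cells with CD90.2, and viable cells were sorted by CD11c and CD11b staining. The genotypes shared 1 droplet run, told apart by 1 antibody hashtag each. No animals are named, and both genotypes lie in 1 gene expression library. Each genotype is therefore 1 set of cells without replicates, cells are not replicates, and no difference between genotypes was tested. Intervals are exact, at the 95% level, and cover counting error only.

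Neutrophils are short-lived phagocytes that leave the bone marrow as CXCR2 signalling overtakes retention by CXCR4. During maturation they stop making granule proteins, and granule transcripts such as Camp and Ltf fade. At inflamed sites they release IL-1 beta and the chemokines CXCL2 and CXCL3, which bind CXCR2 and draw in further neutrophils. Transcription factors of the NF-kB family drive many of these genes, and interferons induce a separate set that includes Isg15, Rsad2 and the Ifit genes.

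The neighbouring chemokine genes Cxcl3, Cxcl1 and Cxcl2 and 3 interferon-stimulated genes are shown by the 200 bases before their transcription starts, because Cxcl2 and Cxcl3 were higher in Mgl2DTR members and Isg15, Rsad2 and Ifit3 were lower. Sequences are from RefSeq on GRCm38.p6, 5′ to 3′ on the gene's strand. Capitals in the chemokine genes mark matches, on either strand, to the NF-kB letters, GGG and TTCC with 3 bases of any kind between them, and matches that overlap are run together.
Cxcl2 (chr5:90903699-90903898, plus strand): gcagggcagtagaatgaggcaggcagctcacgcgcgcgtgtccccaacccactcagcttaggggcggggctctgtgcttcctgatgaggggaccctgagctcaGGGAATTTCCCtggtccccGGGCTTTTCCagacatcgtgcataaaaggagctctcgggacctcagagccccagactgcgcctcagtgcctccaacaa
Cxcl3 (chr5:90785901-90786100, plus strand): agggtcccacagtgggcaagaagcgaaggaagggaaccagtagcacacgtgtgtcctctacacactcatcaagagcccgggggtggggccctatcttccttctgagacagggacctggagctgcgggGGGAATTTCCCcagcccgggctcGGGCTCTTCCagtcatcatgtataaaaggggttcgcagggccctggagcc
Cxcl1 (chr5:90891045-90891244, plus strand): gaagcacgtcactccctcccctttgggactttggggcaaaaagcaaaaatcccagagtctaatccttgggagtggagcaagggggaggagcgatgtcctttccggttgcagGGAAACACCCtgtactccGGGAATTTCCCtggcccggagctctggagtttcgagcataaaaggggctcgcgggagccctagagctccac
Capitals in the other genes mark matches, on either strand, to the interferon-response letters, TTTC and TTTC with 2 bases of any kind between them.
Isg15 (chr4:156200819-156201018, minus strand): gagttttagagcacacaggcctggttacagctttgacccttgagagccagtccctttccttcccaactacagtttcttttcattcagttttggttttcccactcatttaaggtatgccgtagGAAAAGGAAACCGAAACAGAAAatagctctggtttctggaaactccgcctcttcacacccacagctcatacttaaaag
Rsad2 (chr12:26456453-26456652, minus strand): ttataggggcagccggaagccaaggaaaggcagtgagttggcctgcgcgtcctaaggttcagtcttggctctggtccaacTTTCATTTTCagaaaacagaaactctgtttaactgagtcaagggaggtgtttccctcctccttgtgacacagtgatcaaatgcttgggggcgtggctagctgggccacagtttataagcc
Ifit3 (chr19:34583329-34583528, plus strand): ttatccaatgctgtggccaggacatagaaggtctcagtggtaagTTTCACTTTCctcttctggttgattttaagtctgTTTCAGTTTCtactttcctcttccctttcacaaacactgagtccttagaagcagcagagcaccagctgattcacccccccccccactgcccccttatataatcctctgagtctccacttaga
The NF-kB letters were found in 1286 of 32843 RefSeq windows of this length (3.92%), and the interferon-response letters in 746 (2.27%). By gene, with any window of a gene counted, the NF-kB letters stood before 1208 of 27020 genes (4.47%) and the interferon-response letters before 716 (2.65%). The NF-kB letters stood before 5 of 13 chemokine and cytokine genes with a window (Cxcl1, Cxcl2, Cxcl3, Cxcl10 and Csf1). Of these, only Cxcl2 and Cxcl3 were called higher in Mgl2DTR members. The same letters stood before 7 of 21 NF-kB subunits, feedback genes and targets and 4 of 12 pathogen and Fc receptor genes. They stood before 0 of 17 immediate early genes. The interferon-response letters stood before 7 of 16 interferon-stimulated genes. Among all genes called in members, described below, the NF-kB letters stood before 17 of 222 higher genes with a window (7.66%) and 13 of 199 lower genes (6.53%), against 156 of 2429 measured genes (6.42%). The interferon-response letters stood before 8 of the higher genes (3.6%) and 19 of the lower genes (9.55%), against 88 measured genes (3.62%). A match describes the letters only. Cxcl1, whose window holds the same run GGGAATTTCCC as those of Cxcl2 and Cxcl3, had 19 UMIs in Mgl2DTR members and 0 in WT members.

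Of the 6 marker genes for mature inflammatory neutrophils, the rule used G0s2, Hdc and Cxcr2, so their presence follows from the choice of cells. The rule did not use Cxcl2, Il1r2 and Trem1, and all 3 were detected in both genotypes. Levels are given in CPM, the UMIs of a gene summed over a group of cells and scaled to a total of 1000000 UMIs. Over both genotypes the genes with the highest level relative to all other cells, with 10 CPM added to both, were led by G0s2, an inhibitor of triglyceride breakdown, at 5741 CPM against 55.6 CPM in all other single-hashtag cells. Cxcl2 followed at 13270 against 155 CPM, and the receptor gene Cxcr2, like G0s2 a gene of the rule, at 1291 against 12.3 CPM. Il1r2 stood at 1244 against 23.2 CPM and Trem1 at 1080 against 12.5 CPM. The lectin receptor gene Clec4d, the histidine decarboxylase gene Hdc, the itaconate enzyme gene Acod1 and Trem1, which encodes a receptor, were also among the leading 20. These values describe cells that were chosen by their counts, and no test was made of them. Cells just inside the 3% limit (3 to 4%) had 12238 CPM of Cxcl2 in 33 Mgl2DTR cells and 6988 CPM in 4 WT cells. Cells just outside it (2 to 3%) had 3084 CPM in 32 Mgl2DTR cells and 1685 CPM in 8 WT cells. With exactly 3 UMIs of Cxcr2, G0s2 and Hdc, just inside, Cxcl2 stood at 4773 CPM in 15 Mgl2DTR cells and 4086 CPM in 7 WT cells, and with 2 UMIs, just outside, at 11153 CPM in 9 Mgl2DTR cells and 3405 CPM in 4 WT cells.

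Members were shallow cells. They held 1258079 UMIs in Mgl2DTR (median 1842 per cell, 723 genes) and 241720 UMIs in WT (median 1981 per cell, 770 genes). The other single-hashtag cells had medians of 7460 and 7954 UMIs. The rule sets upper limits in UMIs, which admit shallow cells more readily than deep ones. Cells with 5 granule UMIs, just outside the rule, had a median of 9681 UMIs in 6 Mgl2DTR cells and 3311 UMIs in 2 WT cells. Members with at least 4000 UMIs numbered 48 in Mgl2DTR and 6 in WT, and gave 32.4% and 15.2% of the UMIs. Genes of other cell types were present and differed between genotypes. Summed macrophage markers stood at 272 CPM in Mgl2DTR members and 1357 CPM in WT members, where 1 cell gave 62.2% of the counts. Monocyte markers stood at 722 and 1038 CPM, class II genes at 3652 and 4025 CPM, B cell markers at 490 and 298 CPM, and cycling genes at 583 and 269 CPM. Of 7 mast cell and basophil markers, 5 were at 0 in both genotypes, and 6 eosinophil markers summed to 28.6 CPM in Mgl2DTR members and 12.4 CPM in WT members. Cells of 1 genotype caught in 1 droplet cannot be seen by hashtag and no doublet caller was run. Calls were also made for members under 4000 UMIs and for the 223 Mgl2DTR and 41 WT members that hold at most 5 class II UMIs and at most 1 UMI each of the B cell genes, of Siglech and of the C1q genes, called members without other types' markers. The part of the cells left out in other results was not tested.

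Mature inflammatory neutrophils formed 6.85% of Mgl2DTR cells (509 of 7433, interval 6.28 to 7.45) and 0.941% of WT cells (109 of 11586, interval 0.773 to 1.13). The share was 7.28 times higher in Mgl2DTR (interval 5.91 to 9.04), and 5.92 times higher when cells with Cd3 transcripts were left out of the total. Under 11 other choices of cells or total the ratio lay between 5.92 and 8.48, and with only cells rich in S100a8 and S100a9 as the total it was 1.86. Granule-rich neutrophils, cells with the same S100a8 and S100a9 share and exclusions but over 4 UMIs of the granule genes, formed 3.66% of Mgl2DTR cells (272) and 1.77% of WT cells (205), a ratio of 2.07 (interval 1.72 to 2.49). Monocytes, chosen by Ly6c2, Ccr2, F13a1 and Ms4a4c, formed 11.8% and 9.69%. Among all cells rich in S100a8 and S100a9, members were 63.0% of 808 Mgl2DTR cells and 33.9% of 322 WT cells, and granule-rich cells were 33.7% and 63.7%. Fewer cells of other types in the sorted Mgl2DTR pool would raise the share as more neutrophils would, and these cannot be told apart. Mgl2 itself was at 18.2 CPM in the other Mgl2DTR cells and 109 CPM in the other WT cells. Members held 3 Mgl2 UMIs in Mgl2DTR and 12 in WT, 91.7% of the WT ones in 1 cell.

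**Figure D1:**
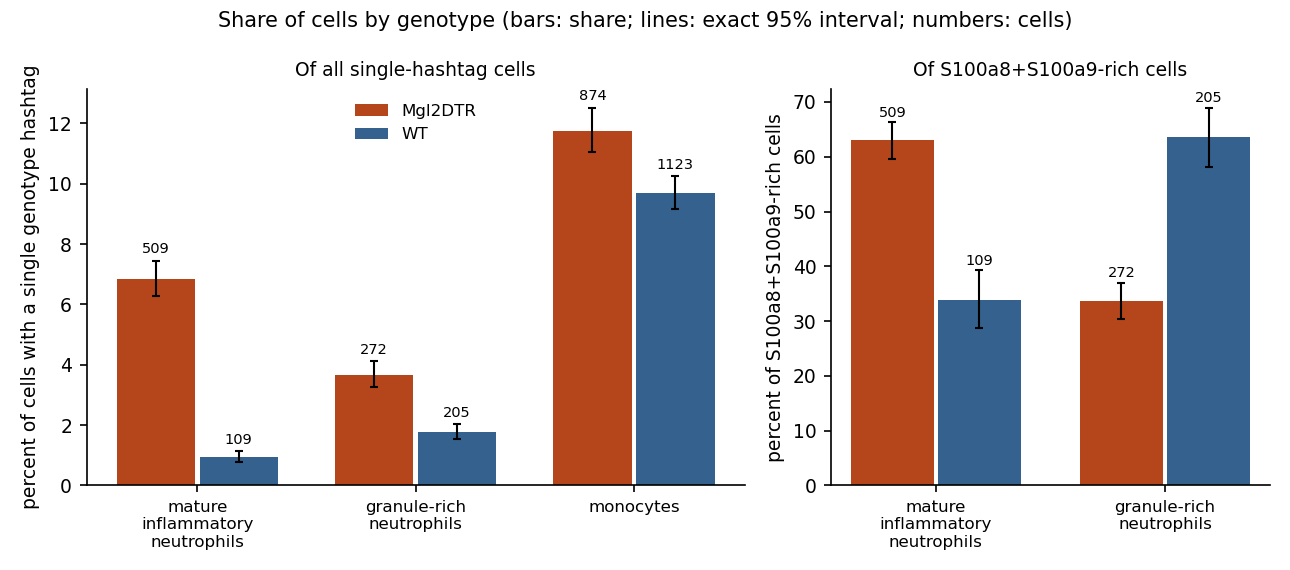
Share of cells by genotype, as percent of all single-hashtag cells (left) and of S100a8- and S100a9-rich cells (right), with Mgl2DTR left of WT; bars are shares, lines exact 95% intervals and numbers cell counts. Members were 6.85% of Mgl2DTR and 0.941% of WT cells, and the order of members and granule-rich cells was opposite in the genotypes on the right.

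Genes were compared by summing UMIs over the members of each genotype. A gene was measured at 50 summed counts or more. It was called when the ratio of Mgl2DTR to WT reached 1.5 in either direction and its interval did not include 1. Of 3032 measured genes 285 were higher in Mgl2DTR members (9.4%) and 257 lower (8.48%), and the median log2 ratio was 0.02. With totals that leave out S100a8 and S100a9, which took more of the WT UMIs, 222 genes were higher and 332 lower. Among members under 4000 UMIs, 194 of 2208 genes were higher (8.79%) and 204 lower (9.24%). Among members without other types' markers, 125 of 1228 genes were higher (10.2%) and 87 lower (7.08%). Gene lists are described by their counts and median, and nothing is called particular to a list. Each list count below is to be read beside these shares of all measured genes. Levels of different genes were counted from the 3′ end, so they were not divided by length.

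Several chemokine transcripts were higher in Mgl2DTR members. Of 12 measured chemokine and cytokine genes 5 were higher in Mgl2DTR members and 0 lower, with a median log2 ratio of 0.31. Among members without other types' markers 6 of 9 were higher, and under 4000 UMIs 5 of 11, with 0 lower in both. Cxcl2, a CXCR2 ligand, had 19151 UMIs in Mgl2DTR members (15222 CPM, interval 15008 to 15440) and 752 UMIs in WT members (3111 CPM, interval 2893 to 3342), a ratio of 4.89 (interval 4.55 to 5.27). The ranges of single members overlapped, but the Mgl2DTR median lay above the WT 90th percentile. The median Mgl2DTR member had 138 Cxcl2 UMIs per 10000 (10th to 90th percentile 7.97 to 433), and the median WT member 17.2 (0 to 115). With each member thinned to 1000 UMIs, 91.1% of 484 Mgl2DTR members and 59.4% of 101 WT members held a Cxcl2 UMI, leaving out 25 and 8 shallower cells (92.9% and 68.8% before thinning). T cell marker cells, which carry at least 4 Cd3 UMIs and at most 5 class II UMIs and should lack Cxcl2, held it in 0 of 220 Mgl2DTR cells and 5 of 716 WT cells (0.698%) at the same depth, from medians of 3062.5 and 2748 UMIs against 1877 and 2087 in members. The count of 0 allows up to 1.66%.

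Cxcl3, a second ligand of CXCR2 in the mouse, had 901 UMIs in 157 Mgl2DTR members and 6 UMIs in 3 WT members, a ratio of 28.9 (interval 13.2 to 78.8). Cxcl3 was seen in 30.8% of Mgl2DTR members and 2.75% of WT members, in 24.2% and 1.98% when thinned to 1000 UMIs, and in 0 T cell marker cells of either genotype. The macrophage inflammatory protein genes Ccl4 and Ccl3 followed with ratios of 6.52 (1916 and 294 CPM) and 1.97 (351 and 178 CPM). Both were carried by a minority of cells. Ccl4 had a UMI in 30.8% of Mgl2DTR and 20.2% of WT members, in 23.6% and 17.8% when thinned, and in 5.45% and 4.75% of thinned T cell marker cells. Ccl3 had a UMI in 21.8% and 16.5% of members, and in 14.7% and 13.9% when thinned, and 1 WT member gave 27.9% of the WT UMIs. Ccl6, a CCR1 ligand, had 1770 CPM in Mgl2DTR members and 769 CPM in WT members, a ratio of 2.30. The cytokine gene Il1b did not pass the size rule, at 11373 and 9197 CPM (ratio 1.24), and neither did oncostatin M, Osm (606 and 496 CPM), nor Csf1 (216 and 174 CPM). Tnf was under the count minimum, at 35 UMIs in Mgl2DTR and 2 in WT members.

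**Figure D2:**
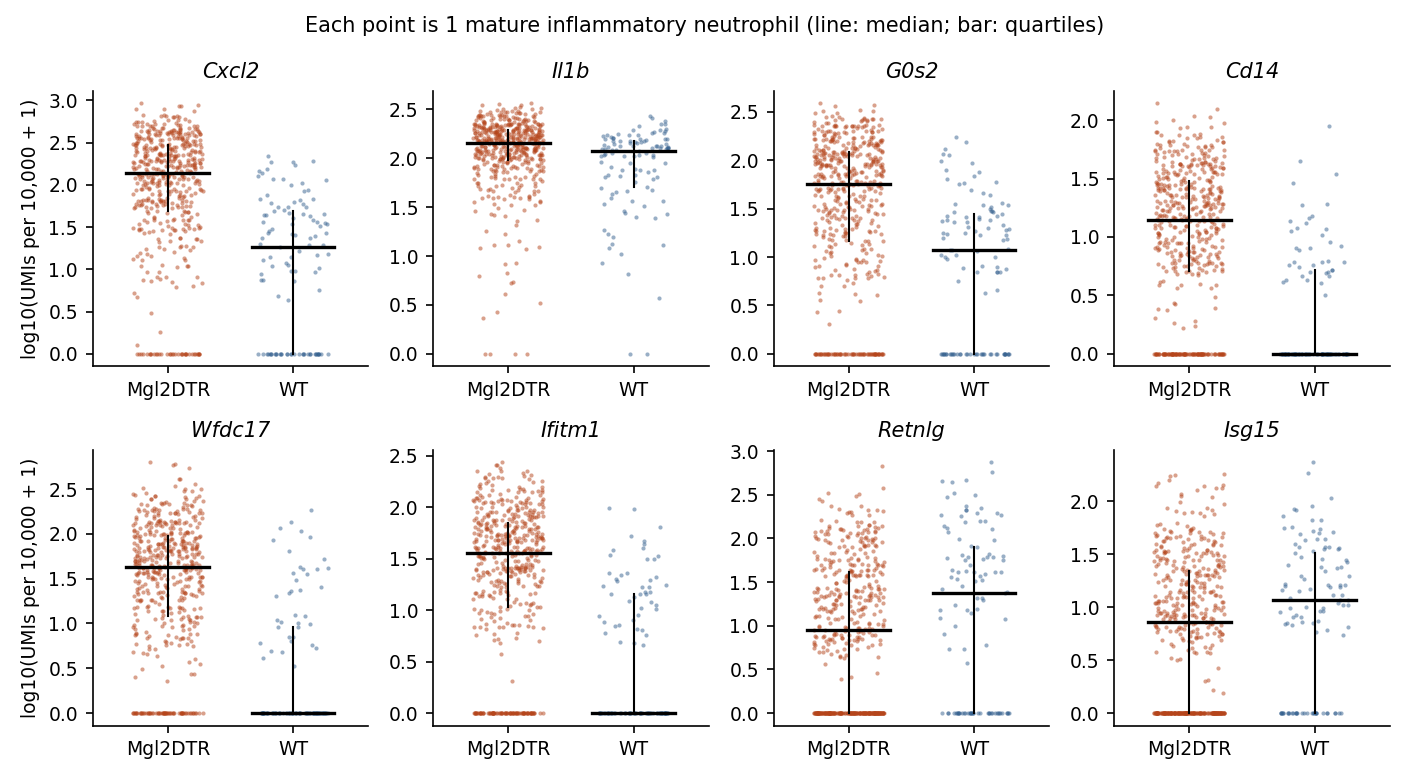
UMIs per 10000 in each member for 8 genes, on a log10 scale with 1 added, Mgl2DTR left of WT; points are cells, horizontal lines medians and vertical lines quartiles. Median Cxcl2 was 138 in Mgl2DTR and 17.2 in WT members, and Il1b medians were close at 143 and 117.

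Of 9 measured genes of the IL-1 pathway 4 were higher and 0 lower (median log2 ratio 0.58). Il1rap, the accessory chain of the IL-1 receptor, had 204 CPM in Mgl2DTR members and 62.1 CPM in WT members (ratio 3.29, interval 1.96 to 5.97). Il1r2, the decoy receptor for IL-1, had 1334 and 778 CPM (ratio 1.71), with UMIs in 86.1% and 73.4% of members. The inflammasome sensor gene Nlrp3 had 495 and 277 CPM (ratio 1.79). Pycard, the adaptor between sensor and caspase, had a ratio of 2.10, and turned to 0.843 in members under 4000 UMIs. Il1rn, the receptor antagonist, had 486 and 480 CPM (ratio 1.01). Among members without other types' markers 3 of 7 were higher, and under 4000 UMIs 5 of 8, with 0 lower in both.

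Of 24 measured NF-kB subunits, feedback genes and targets 7 were higher and 1 lower (median log2 ratio 0.21). Cd14, the lipopolysaccharide co-receptor, had 1601 CPM in Mgl2DTR members and 368 CPM in WT members (ratio 4.35, interval 3.52 to 5.44). It was seen in 80.0% and 34.9% of members, in 66.3% and 20.8% when thinned to 1000 UMIs, and in 0.455% and 0.419% of thinned T cell marker cells. Tnfaip3, which encodes the feedback enzyme A20, had a ratio of 2.96 (269 and 91.0 CPM). Acod1 had 919 and 364 CPM (ratio 2.52). The inhibitor gene Nfkbia and its relative Nfkbiz had ratios of 1.84 and 2.00, and the early response gene Ier3 1.91. Nlrp3, described above, is the remaining one. Nfkb2, a subunit gene of the alternative pathway, was lower, at 52.5 and 108 CPM (ratio 0.488). Nfkb1, Rel and Rela did not pass the size rule, with ratios of 0.749, 0.969 and 1.15. In members without other types' markers 7 of 13 were higher and 0 lower, and under 4000 UMIs 8 of 21 higher and 1 lower.

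Of 18 measured chemoattractant receptor and adhesion genes 4 were higher and 1 lower (median log2 ratio -0.08). Ltb4r1, the receptor for leukotriene B4, had 185 UMIs in Mgl2DTR members and 8 in WT members (ratio 4.44, interval 2.21 to 10.4). Cd44, an adhesion receptor for hyaluronan, had 1123 and 616 CPM (ratio 1.82). C5ar1, the receptor for complement C5a, lay at the limit with a ratio of 1.52, and was under it with totals that leave out S100a8 and S100a9 (1.43). Cxcr4, the bone marrow retention receptor, was lower, at 221 CPM in Mgl2DTR members and 505 CPM in WT members (ratio 0.438, interval 0.353 to 0.546). It was seen in 33.0% of Mgl2DTR and 53.2% of WT members, in 20.2% and 37.6% when thinned, and in 8.64% and 5.03% of thinned T cell marker cells. Cxcr2, which the rule used, had 1304 and 1225 CPM, and Hdc 1709 and 1783 CPM. G0s2, the third maturity gene of the rule, had 6412 and 2251 CPM (ratio 2.85). Among members without other types' markers 3 of 16 were higher and 1 lower, and under 4000 UMIs 4 of 18 higher and 1 lower. The list's median turned to 0.15 among members without other types' markers and to 0.07 under 4000 UMIs.

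Of 16 measured pathogen and Fc receptor genes 3 were higher and 1 lower (median log2 ratio 0.27). Trem1, an activating receptor that amplifies inflammation, had 1158 CPM in Mgl2DTR members and 674 CPM in WT members (ratio 1.72, interval 1.46 to 2.03), while its relative Trem3 had 172 and 281 CPM (ratio 0.610). Tlr4, which acts with CD14, had 92.2 and 41.4 CPM (ratio 2.23). The lectin receptor genes Clec4d and Clec4e did not pass the size rule, with ratios of 1.37 and 1.39. Without other types' markers 4 of 14 were higher and 1 lower, and under 4000 UMIs 6 of 16 higher and 1 lower.

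Late granule and maturation genes went both ways, with 2 higher and 5 lower of 20 measured (median log2 ratio -0.26). Retnlg, a resistin-like gene of mature neutrophils, had 3446 CPM in Mgl2DTR members and 9114 CPM in WT members (ratio 0.378, interval 0.359 to 0.398). The collagenase gene Mmp8 had 268 and 860 CPM (ratio 0.311, interval 0.261 to 0.372). Lyz2, which encodes lysozyme, and Wfdc21 were lower with ratios of 0.529 and 0.581. Wfdc17, a whey acidic protein gene, was higher, at 5992 and 1303 CPM (ratio 4.60, interval 4.11 to 5.16). It was seen in 87.6% of Mgl2DTR members and 34.9% of WT members, in 81.8% and 26.7% when thinned, and in 1.36% and 1.40% of thinned T cell marker cells. Lcn2, Slpi and the NADPH oxidase genes Ncf1 and Cybb did not pass the size rule, with ratios between 0.878 and 1.07. Stfa2l1, a stefin gene whose reads may be shared with near-identical copies, was at the limit with a ratio of 1.52. Without other types' markers 1 of 16 was higher and 5 lower, and under 4000 UMIs 1 of 19 higher and 6 lower. With at most 1 granule UMI per member, 2 genes of the list were lower and the median was -0.04. S100a8 and S100a9, which the rule used to choose the members, had ratios of 0.772 and 0.728.

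Retnlg and Cxcl2 ran differently with depth. Cxcl2 was higher in Mgl2DTR members at every depth, at 17255 and 4915 CPM under 1500 UMIs (138 and 26 cells), 22766 and 3820 CPM from 1500 to 2500 (261 and 51 cells), 17313 and 2226 CPM from 2500 to 4000 (62 and 26 cells) and 4163 and 1628 CPM from 4000 (48 and 6 cells). Retnlg had 1500 and 1272 CPM under 1500 UMIs, so it was not lower in Mgl2DTR there. From 1500 to 2500 UMIs it had 3948 and 6004 CPM, and from 2500 to 4000 UMIs 6169 and 16751 CPM.

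Among 20 measured interferon-stimulated genes, 10 were lower in Mgl2DTR members and 1 was higher, and the median of the log2 ratios was -0.66. Isg15, a ubiquitin-like protein gene, had 1366 CPM in Mgl2DTR members and 2519 CPM in WT members (ratio 0.542, interval 0.494 to 0.595). Rsad2, which encodes the antiviral enzyme viperin, had 304 and 554 CPM (ratio 0.549), and Ifit3 128 and 310 CPM (ratio 0.412). Ifit1, Ifit2, Rtp4, Zbp1, Isg20 and Irf7 were lower with ratios between 0.176 and 0.627. The counts rested on few cells: 1 WT member gave 17.9% of the Rsad2 UMIs of WT and 1 gave 36.1% of the Ifit2 UMIs. Isg15 was seen in 62.9% of Mgl2DTR and 70.6% of WT members, in 49.0% and 63.4% when thinned, and in 12.3% and 12.0% of thinned T cell marker cells. Rsad2 was seen in near-equal shares of thinned members, 18.8% and 19.8%, and Ifit3 in 9.50% and 20.8%. The call of Rsad2 was lost under 4 of 13 other choices of cells and scaling. Among members without other types' markers, 1 of 16 measured genes was lower and 1 higher, the median log2 ratio was -0.12, Isg15 had a ratio of 0.843 and Rsad2 1.06. In those cells 7.08% of all 1228 measured genes were lower and 10.2% higher. Among members under 4000 UMIs, 7 of 19 were lower. Under 1500 UMIs Isg15 had 1712 CPM in Mgl2DTR members and 1169 CPM in WT members, and from 2500 to 4000 UMIs 1522 and 3931 CPM.

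**Figure D3:**
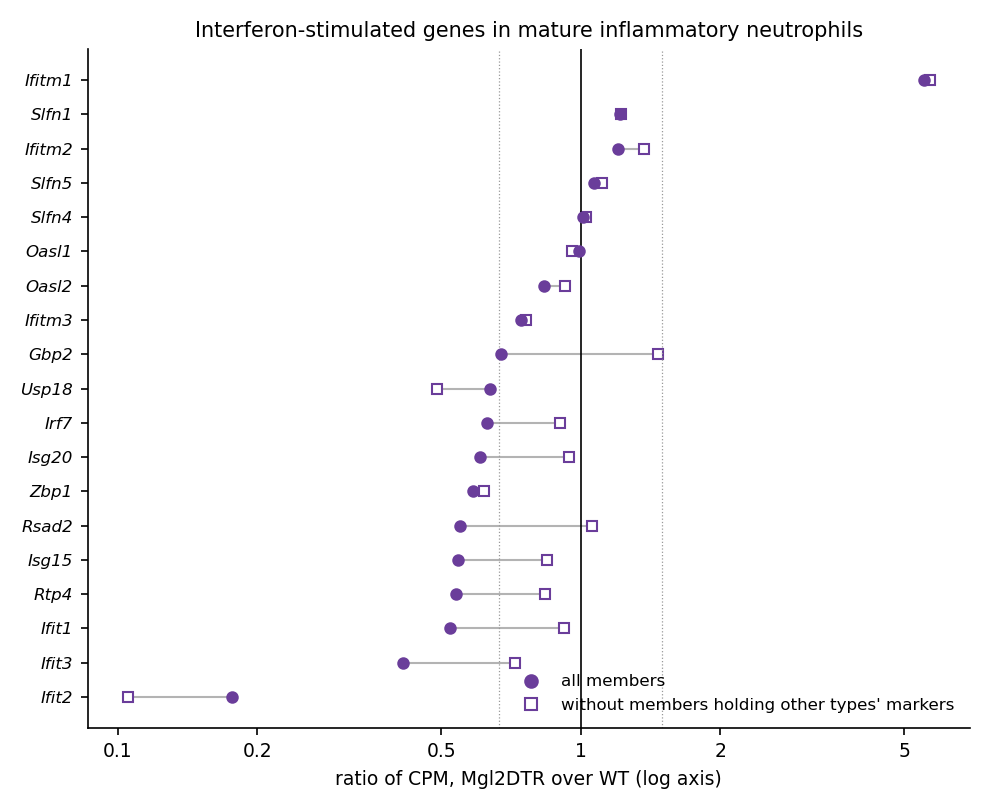
Ratio of CPM, Mgl2DTR over WT, on a log axis for the interferon-stimulated genes reported here, in all members (filled circles) and in members without other types' markers (open squares, also where counts were under the minimum); dotted lines mark 1.5 either way. Isg15 lay at 0.542 in all members and at 0.843 without those cells, and Ifitm1 stayed above 5.

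Ifitm1, which encodes an interferon-induced membrane protein and lies on chromosome 7 (140967221 to 140969825, plus strand), went against the list. It had 5717 UMIs in Mgl2DTR members (4544 CPM) and 199 in WT members (823 CPM), a ratio of 5.52 (interval 4.79 to 6.39). Its neighbours Ifitm2, Ifitm3 and Ifitm6 had ratios of 1.20, 0.743 and 1.02. Ifitm1 was seen in 83.3% of Mgl2DTR and 43.1% of WT members, in 78.7% and 33.7% when thinned, and in 0.455% and 0.838% of thinned T cell marker cells.

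Of 19 measured immediate early genes 5 were higher and 1 lower (median log2 ratio 0.18). Jund had 869 CPM in Mgl2DTR members and 339 CPM in WT members (ratio 2.56), and Fosb and Fosl2 had ratios of 1.87 each. Ier3 and Klf4 (56 and 2 UMIs) were the other higher ones, while Fos was lower (1395 and 2238 CPM, ratio 0.623). Of 6 measured heat shock genes 3 were higher, namely Dnaja1 (ratio 2.11), Hsp90aa1 (2.01) and Hspa8 (1.74), which encode chaperones. Of 18 measured glycolysis and hypoxia genes 4 were higher and 1 lower (median log2 ratio 0.09). Hif1a, the hypoxia-induced transcription factor, had 249 and 95.2 CPM (ratio 2.61), the glucose transporter gene Slc2a1 127 and 53.8 CPM (ratio 2.36), with Pgk1 and Egln3 at ratios of 2.17 and 2.03 and Pfkfb4 lower at 0.557. Ldha, the lactate enzyme gene, had 211 and 149 CPM (ratio 1.41, not called). Of 8 measured lipid and eicosanoid genes 3 were higher. These were Ltb4r1, the lipid droplet coat gene Plin2 (ratio 1.96) and G0s2, which the rule used to choose the members. Of 11 measured survival genes and growth factor receptors 2 were higher and 0 lower: Csf2rb (ratio 1.55), the shared beta chain of the GM-CSF receptor, and Bcl2a1a (1.53), whose reads may be shared with near-identical copies. With totals that leave out S100a8 and S100a9 neither passed. None of 7 measured granulocyte transcription factors passed, in either direction, where Cebpb had a ratio of 1.45 and Runx1 a ratio of 1.54 with an interval that included 1. Of the primary granule genes only Prtn3 was measured, with 91 UMIs in Mgl2DTR and 2 in WT members, and 1 Mgl2DTR member gave 39.6% of them. Several of these counts were smaller among members without other types' markers, where 3 of 17 immediate early genes were higher and 2 lower, 1 of 4 heat shock genes was higher, and 2 of 12 glycolysis and hypoxia genes were higher and 0 lower. In the same cells 4 of 5 lipid and eicosanoid genes, 2 of 8 survival genes and 1 of 6 transcription factors were higher and 0 lower. Under 4000 UMIs the counts higher were 5 of 18 immediate early, 3 of 5 heat shock, 4 of 16 glycolysis and hypoxia, 4 of 8 lipid, 2 of 11 survival and 1 of 6 transcription factor genes, with 1 lower among glycolysis and hypoxia genes and 0 lower in the other 5 lists. Of all measured genes 9.4% were higher and 8.48% lower in members. The shares were 10.2% and 7.08% without other types' markers, and 8.79% and 9.24% under 4000 UMIs. No list was tested against these shares.

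**Figure D4:**
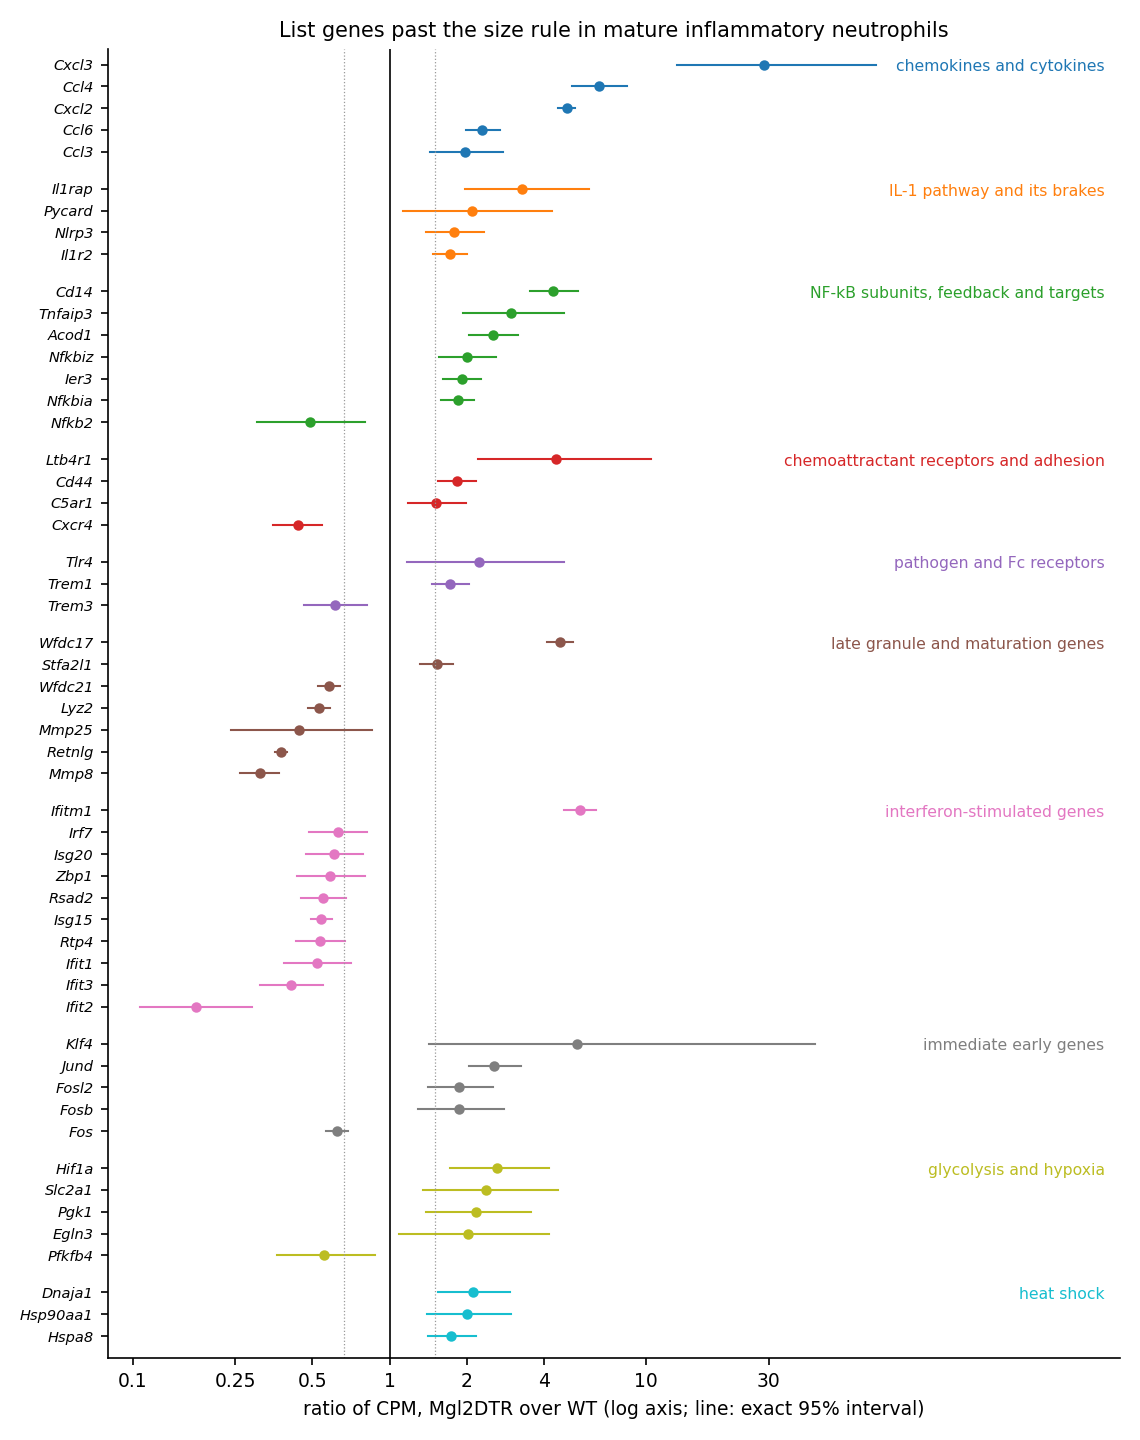
Ratio of CPM, Mgl2DTR over WT, in members for the reported list genes past the size rule, on a log axis and grouped by list; points are ratios, lines exact 95% intervals, and dotted lines mark 1.5 either way. Cxcl3 had the highest ratio at 28.9, and the interferon-stimulated genes drawn lay at or below 0.627 except Ifitm1.

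Outside the lists, the highest ratios belonged to genes with few WT UMIs. Serpinb1a (64 UMIs and 1 UMI, ratio 12.3 with an interval of 2.13 to 493), the B cell genes Cd79a and Iglc2, and the histone genes Hist1h4d, Hist1h2ae and Hist1h2ap were among them. Siglech, which marks plasmacytoid dendritic cells, had 76 UMIs in Mgl2DTR members and 0 in WT members, and 1 Mgl2DTR member gave 34.2% of them. With 3 counts put in place of the WT 0 its ratio was 4.87, which is not a lower limit. Igfbp6, an insulin-like growth factor binding protein gene, had 440 UMIs in 187 Mgl2DTR members and 11 UMIs in 11 WT members (ratio 7.69, interval 4.25 to 15.5). The lowest ratios were those of the complement genes C1qa, C1qb and C1qc (0.181, 0.194 and 0.139), Apoe (0.235) and Selenop (0.199), genes of macrophages. In WT 1 member gave 72.6% of the Apoe UMIs and 1 member gave 63.9% of the C1qa UMIs. Under 4000 UMIs the 3 complement genes and Apoe had ratios between 1.25 and 2.25. Among the other low ratios, Map3k2, Osgin1, Nod1 and Sp3os had ratios between 0.292 and 0.311 from 21 to 23 WT UMIs each.

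The same genes were then set beside the other myeloid cells of the pool, which share the libraries. Cxcl2 was higher in Mgl2DTR in both other myeloid groups compared, at 447 and 216 CPM in granule-rich neutrophils (ratio 2.07) and 497 and 47.7 CPM in monocytes (ratio 10.4), and had 6.77 and 10.7 CPM in T cell marker cells. Ifitm1 was likewise higher in granule-rich neutrophils (516 and 29.9 CPM, ratio 17.3) and in monocytes (634 and 10.5 CPM, ratio 60.1). Neutrophil genes moved the same way in monocytes. General neutrophil markers, a list without Cxcl2, summed to 1959 CPM in Mgl2DTR monocytes and 678 CPM in WT monocytes. Of 20 late granule and maturation genes 14 were higher and 1 lower. Mature neutrophil markers summed to 630 and 95.6 CPM, of which Cxcl2 alone gave the 497 and 47.7 CPM above. Class II genes summed to 13814 CPM in Mgl2DTR monocytes and 43321 CPM in WT monocytes, and macrophage markers to 1788 and 4313 CPM. Markers of type 2 dendritic cells stood at 402 and 1339 CPM, and monocyte markers at 3387 and 2748 CPM. The monocyte groups were thus not alike in the genotypes. The part of these differences and of the neutrophil genes in the monocyte ratios of Cxcl2 and Ifitm1 was not tested. Retnlg and Mmp8 were lower in granule-rich neutrophils too, with ratios of 0.326 and 0.315. Of 20 measured interferon-stimulated genes 17 were lower and 2 higher in Mgl2DTR granule-rich neutrophils, where 6.96% of 7355 genes were lower and 20.5% higher, at median depths of 17287 UMIs in Mgl2DTR and 6435 in WT. In monocytes 7 of 20 were lower and 4 higher, where 8.53% of 10423 genes were lower and 7.94% higher. Chemokine and cytokine genes went both ways in granule-rich neutrophils, with 3 of 12 higher and 3 lower, and in monocytes, with 6 of 16 higher and 2 lower. These counts stand beside the shares of all genes just given. Among all other single-hashtag cells 11 of 18 chemokine and cytokine genes were higher and 0 lower, where 6.27% of 14074 genes were higher and 5.13% lower. These cells include the granule-rich neutrophils (272 of 6924 Mgl2DTR cells and 205 of 11477 WT cells). Their general neutrophil markers summed to 24371 CPM in Mgl2DTR and 8054 CPM in WT, and their mature neutrophil markers, Cxcl2 among them, to 580 and 102 CPM. The part of neutrophil transcripts in the chemokine and cytokine count of these cells was not tested. Tnfaip3, Nfkbia and Acod1, higher in members, had ratios of 0.872, 0.981 and 0.842 in granule-rich neutrophils. Whether the ratios differ between the groups of cells was not tested.

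**Figure D5:**
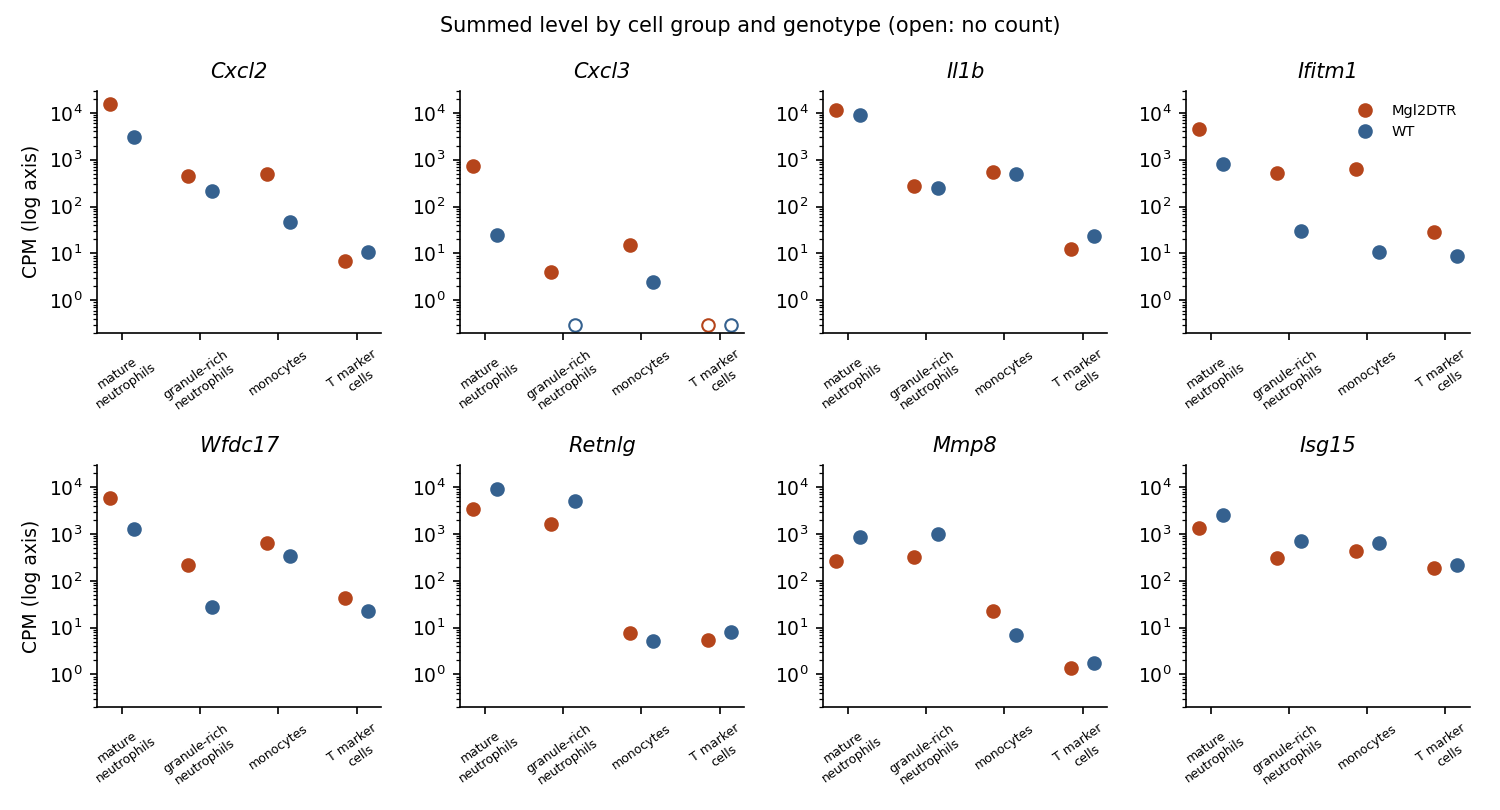
Level of 8 genes in CPM, on a log axis, in mature inflammatory neutrophils, granule-rich neutrophils, monocytes and T cell marker cells, with Mgl2DTR (red) left of WT (blue); open points mark groups with no count. Cxcl2 lay at 15222 and 3111 CPM in members and at 6.77 and 10.7 CPM in T cell marker cells.

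Members of 1 genotype were not uniform. Across 484 Mgl2DTR members thinned to 1000 UMIs, Cxcl2 and G0s2 had a rank correlation of 0.35, and Cxcl2 and Il1b 0.38. Across 101 WT members the same values were 0.006 and -0.08. Cxcl2 and Ccl4 went the other way, at 0.14 in Mgl2DTR and 0.23 in WT members. At this depth 91.1% of Mgl2DTR and 59.4% of WT members held a Cxcl2 UMI, and G0s2 is a gene of the rule. The effect of either on these values was not tested. Retnlg went with S100a8, which the rule used to choose the members, in both genotypes (0.50 and 0.72). Retnlg and Il1b had -0.12 in Mgl2DTR and -0.44 in WT members. Isg15 and Ifit3 had 0.30 and 0.48. These are descriptions over cells that share 1 library and 1 depth.

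Of 81 called genes among the lists and the named extremes, 20 kept their call under every one of 13 other choices of cells and scaling. The 17 higher ones included Cxcl2 (ratios from 4.44 to 6.07), Cxcl3, Ccl4, Ccl6, Cd14, G0s2, Wfdc17, Ifitm1, Il1rap, Ltb4r1, Tnfaip3, Nfkbiz, Acod1, Hif1a and Jund. G0s2 among them was used by the rule that chose the members. The 3 lower ones were Retnlg (0.242 to 0.537), Mmp8 (0.195 to 0.419) and Cxcr4 (0.305 to 0.504). The members of both genotypes had no Xist UMI and held the Y-linked gene Ddx3y at 135 CPM in Mgl2DTR and 108 CPM in WT. With no replicate animals named, differences between animals, in handling or in toxin exposure cannot be told apart from genotype.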

How the data were processed

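Single-cell gene expression and hashtag libraries were made with the Chromium 3′ v3 kit, per the labels' protocols. Cell Ranger 6.0.0, Seurat 4.0.4 and the build mm10 are listed in the submitters' processing notes. The annotation behind the counts was not given in sources used here. The deposited tables hold raw counts of UMIs for 20451 genes and 28926 cells, with no barcode shared between the tables. The deposited annotation assigns a hashtag to each cell, with a score for how far the strongest hashtag stood above the next. Its UMI totals were equal to the summed counts in all cells. No other columns of per-sample values were used.

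UMIs were summed over members of each genotype in Python 3.11.15 with pandas 2.3.3, numpy 2.4.6 and scipy 1.17.1, with exact Poisson, Clopper-Pearson and conditional intervals. The size rule was tested on simulated Poisson counts, which the intervals also assume. The simulation held no differences between cells or animals, so it does not show how the rule behaves with them. A gene at 0 counts was set against 3 counts. With no replicates of a genotype there was no test, and p-values, edgeR and DESeq2 were not used. Named genes were the rule genes, markers, fixed lists, and beyond them the 10 highest and 10 lowest ratios and the 20 highest levels. Members and lists were chosen with earlier results of these data known. Of 337 named genes 336 matched 1 GENCODE vM21 gene. Of the lists, Clec7a and Mx1 were not analysed here. Alternatives changed the rule, the depth, the scaling, the count minimum and the fold. Some measured genes of the lists enter the counts but are not reported here by name.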

Additional observations from a re-analysis of the deposited data

Results flagged for a closer look

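Cells outside the single-hashtag set met the rule as well, and none of them enters a comparison. They were 70 of 4755 cells with both genotype hashtags (1.47%), 52 of 2762 with the Mgl2DTR hashtag and a further hashtag that the labels do not describe (1.88%), 15 of 2312 with the B6WT and that further hashtag (0.649%), and 2 of 78 with no hashtag. Their Cxcl2 levels were 5791, 7185, 2228 and 5931 CPM, against 15222 CPM in Mgl2DTR and 3111 CPM in WT members. Their class II invariant chain gene Cd74 stood at 3643, 6983, 13232 and 1369 CPM, against 1800 and 2060 CPM in members.

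A pair of genes was called in opposite directions in members and in granule-rich neutrophils. Nfkbiz, from the list of NF-kB genes, had a ratio of 2.00 in members and 0.641 in granule-rich neutrophils. Iglc2, an immunoglobulin light chain gene, had ratios of 10.8 and 0.569. The difference between the groups of cells was not tested, and 1 WT member held the single Iglc2 UMI of WT.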

How the results depend on the processing

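The share ratio of 7.28 was 1.86 when the total was cells rich in S100a8 and S100a9. The count of higher genes, 285 as reported, was 181 with at most 1 granule UMI, 754 with at most 10, 125 without members holding other types' markers, 138 with members thinned to 1000 UMIs, 432 with each member scaled to the same total and calls made by the ratio alone, 159 with a count minimum of 200 and 151 at a fold of 2. The count of lower genes, 257 as reported, was 422 with at most 10 granule UMIs, 87 without other types' markers, 98 thinned, 504 scaled to the same total, 68 with a minimum of 200 and 95 at a fold of 2. Stricter minimums and folds and smaller sets of cells leave fewer genes to call by construction. For the other moves the cause was not tested.

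Without other types' markers Apoe turned to 1.32, C1qa to 1.01, C1qb to 2.39, Hist1h2ap to 0.644, Iglc2 to 0.736, Pycard to 0.781 and Rsad2 to 1.06. Those members were chosen to hold at most 1 UMI each of the C1q genes and of the B cell genes. The moves of C1qa and C1qb therefore follow from that choice, and those of Apoe and Iglc2 were not tested apart from it. Under 4000 UMIs, a choice made after seeing the data, Apoe turned to 1.55, C1qa to 1.25, C1qb to 1.89, C1qc to 2.25 and Pycard to 0.843. Pycard was also 0.918 when thinned and 0.987 when scaled to the same total. Siglech was 0.749 with an S100a8 and S100a9 share of at least 2%. Without the members with the weaker hashtag margins, calls lost included those of Ccl3, Il1r2, Nfkbia, Nlrp3, Cd44 and Ier3, with ratios between 1.34 and 1.48. No paired analysis was possible because each genotype is 1 set of cells with no replicate number. Depth limits genes with few UMIs: 50 summed counts were the least that was compared, and 3 counts in WT members stand for 12.4 CPM.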
